A study of Homo sapiens with 9 samples.

Results

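The insulin-like growth factor binding protein (IGFBP) genes are described here in HCT116 cells depleted of the histone variant H2A.X. The genes were taken by name: a probe set counted if its only gene symbol was IGFBP followed by a digit from 1 to 7, and a gene with several probe sets would have been read from the one with the highest mean. Of the 7 family genes, 6 had a named probe set, among 14884 genes measured in all. These were IGFBP1, IGFBP3, IGFBP4, IGFBP5, IGFBP6 and IGFBP7, with 1 probe set each. IGFBP2 was not analysed here. The family was picked because IGFBP3 and IGFBP6 were known to be higher in H2A.X-depleted cells, so the family's own differences below are descriptions and carry no test.

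HCT116 is an established epithelial cell line from a human colorectal carcinoma. Its cells had been infected with a lentiviral pLKO.1 vector carrying either a short hairpin RNA against H2AFX, the gene of H2A.X (shH2A.X, 5 arrays), or a scrambled hairpin (shCTRL, 4 arrays). Both lines were selected with puromycin and then grown for 72 h in medium with 10% fetal bovine serum. Total RNA, 100 ng for each array, was hybridized to Affymetrix Human Gene 2.0 ST arrays. H2A.X is best known as the histone that is phosphorylated around DNA breaks, and the study compared the lines to ask how its loss changes the expression programme of a colon cancer cell. Both groups thus carried an integrated vector and puromycin resistance, with the same stated culture time and serum, and each was a stably selected line. The paper names 1 hairpin against H2A.X. Other effects of that hairpin, or of how a line was derived, cannot be told apart from those of the depletion. The study calls the replicates independent but no source names separate infections behind them, so the spread between arrays may be partly technical. H2A.X itself was not analysed here, so the depletion was not checked in these data. The values are log2 values normalized by the authors, on which 1 unit is a 2-fold change, and the medians of the 9 arrays lay between 4.54 and 4.58. Levels were compared between arrays only, since the brightness of one probe set cannot be set against that of another. A level is an average over the whole culture, so more cells with a transcript and more transcript in each cell cannot be told apart.

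IGFBPs are secreted proteins that hold the insulin-like growth factors IGF1 and IGF2 with high affinity and thereby set how much of each ligand reaches the receptor IGF1R. Proteases release the ligand again by cutting the binding protein. Several members also act without IGFs, by binding matrix proteins, cell-surface proteins or nuclear partners. IGFBP3 carries most of the circulating IGF in a complex with the acid-labile subunit. IGFBP6 is set apart by its preference for IGF2 over IGF1.

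The 250 bases before the annotated start are shown for IGFBP3 and IGFBP6, the family genes that were higher in shH2A.X cells, because both hold an E-box of the form CACCTG or its reverse complement CAGGTG, the letters read by zinc-finger repressors such as Slug and ZEB1. The sequences are those of RefSeq on GRCh38.p14, written 5′ to 3′ on the strand of the gene, with the E-box in capitals. IGFBP3 lies on the minus strand, and its window is chr7:45921273-45921522. IGFBP6 lies on the plus strand, and its window is chr12:53097417-53097666.
IGFBP3: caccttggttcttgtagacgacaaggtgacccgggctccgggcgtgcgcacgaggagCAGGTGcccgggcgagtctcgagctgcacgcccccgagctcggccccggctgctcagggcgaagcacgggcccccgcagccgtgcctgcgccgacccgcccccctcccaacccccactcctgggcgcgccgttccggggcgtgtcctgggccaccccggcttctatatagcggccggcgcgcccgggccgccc
IGFBP6: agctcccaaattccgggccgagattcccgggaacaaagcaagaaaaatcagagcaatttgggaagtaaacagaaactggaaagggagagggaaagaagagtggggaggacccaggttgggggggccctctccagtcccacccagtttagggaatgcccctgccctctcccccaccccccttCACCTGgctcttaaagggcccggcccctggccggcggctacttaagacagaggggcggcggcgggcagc

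The IGFBP3 window had 76% G and C and a CpG content of 0.898 of that expected from its bases, which makes it a CpG-rich promoter. Its E-box, CAGGTG, began 193 bases before the start. A pair of GC boxes (CCGCCC) began 98 and 6 bases before the start, and 2 overlapping matches to a TATA box stood 32 and 30 bases before it. The IGFBP6 window was poorer in CpG, with 61.2% G and C and 0.385 of the expected CpG. Its E-box, CACCTG, began 69 bases before the start and its only GC box (GGGCGG) 17 bases before it, and it held no TATA match. Promoter windows were also at hand for IGFBP4 and IGFBP5, so 4 of the 6 measured genes were matched. The IGFBP4 window (chr17:40443200-40443449, plus strand) had 71.6% G and C, a GC box and a TATA match but no E-box of this form. The IGFBP5 window (chr2:216695550-216695799, minus strand) had 61.2% G and C and none of the motifs. The search read both strands for CACCTG, for GGGCGG and for TATANA, where N is any base. Over 34788 distinct promoter windows of the same length, 17.5% held the E-box, 42.6% the GC box and 17.7% the TATA match. A match to these letters is a description of the sequence, and binding of a factor was not measured here.

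IGFBP6 and IGFBP3 were higher in shH2A.X than in shCTRL cells on every array, by about the same amount, while the other 4 measured family genes overlapped between the groups. IGFBP6 was 4.18-fold higher and IGFBP3 3.95-fold higher. The differences of IGFBP1, IGFBP4, IGFBP5 and IGFBP7 lay between -0.31 and 0.06 on the log2 scale. In the limma fit across all genes, 2 of the 6 family genes lay past the threshold of an adjusted p under 0.05 and none was past it as lower, where 12.2% of all 14884 genes were called higher and 10.7% lower. Groups without overlap were seen in 2 of 6 family genes and in 22.8% of all genes. Since the family was chosen on this contrast, nothing is read from these counts.

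IGFBP6 gave log2 values of 9.41, 9.19, 9.26, 9.20 and 9.07 on shH2A.X arrays 1 to 5, against 7.11, 7.21, 7.31 and 7.02 on shCTRL arrays 1 to 4. The lowest shH2A.X array stood 1.76 above the highest shCTRL array, so the groups were far from overlapping. The means were 9.23 ± 0.12 in shH2A.X cells (SD, n = 5) and 7.16 ± 0.13 in shCTRL cells (SD, n = 4), a difference of 2.06 (SE 0.08). Within each group the arrays differed by only a small part of that distance. The gene spans chr12:53097667-53102340 on GRCh38.p14 and is a compact gene of 4674 bases. Of all 14884 genes, 17 had a larger positive difference.

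IGFBP3 gave 8.12, 8.13, 8.03, 7.82 and 7.78 on shH2A.X arrays 1 to 5, against 6.04, 6.08, 6.12 and 5.72 on shCTRL arrays 1 to 4. Arrays 4 and 5 were the lower ones among the shH2A.X arrays and array 4 was the lowest of the shCTRL arrays, yet the gap between the groups was 1.65. The means were 7.97 ± 0.17 in shH2A.X cells (SD, n = 5) and 5.99 ± 0.18 in shCTRL cells (SD, n = 4), a difference of 1.98 (SE 0.10). The gene spans chr7:45912245-45921272 over 9028 bases, and 18 genes had a larger positive difference.

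**Figure D1:**
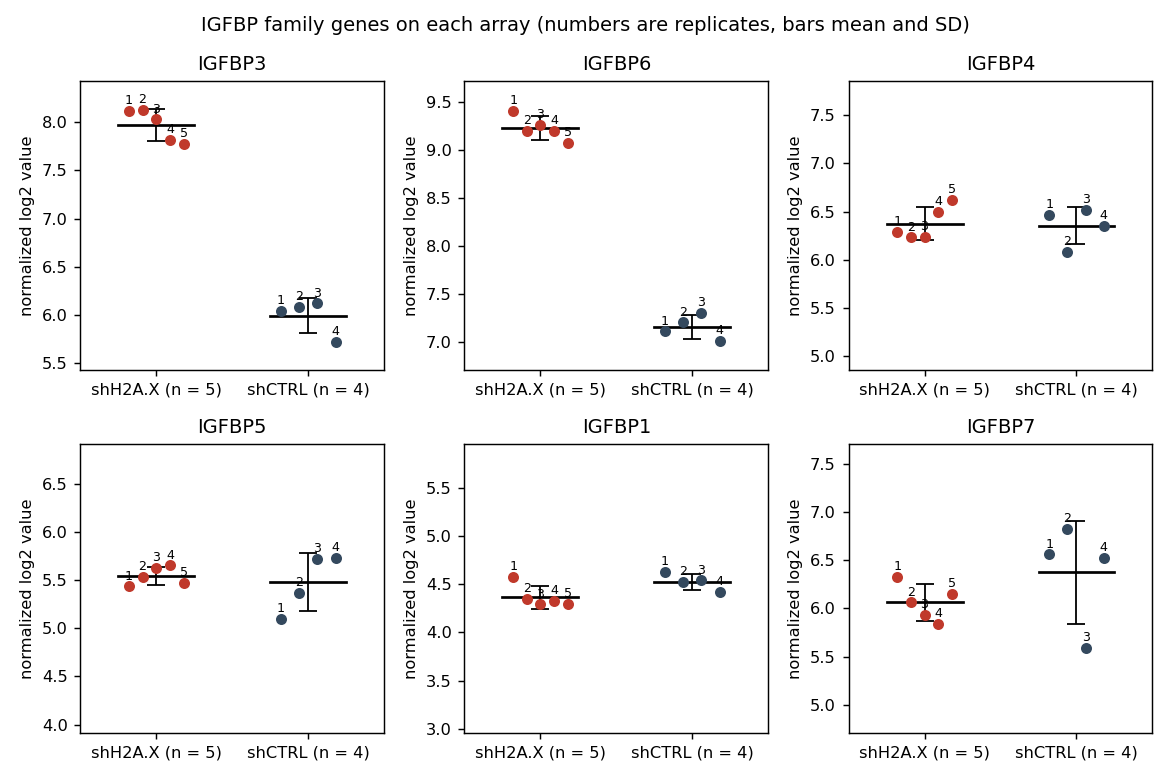
Normalized log2 value (vertical axis, each panel spanning the same number of log2 units) of the 6 measured IGFBP genes on each array, with shH2A.X (n = 5) left and shCTRL (n = 4) right. Numbers beside the points are replicates and bars show mean and SD. IGFBP3 and IGFBP6 separate the groups with gaps of 1.65 and 1.76, and the other 4 genes overlap.

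Within the groups, the array order of IGFBP3 and IGFBP6 was alike in part. The shCTRL arrays fell into the same order for both, with array 4 lowest, then arrays 1, 2 and 3. Among the shH2A.X arrays, array 5 was lowest for both, but array 2 was highest for IGFBP3 and next to lowest for IGFBP6. The difference IGFBP6 minus IGFBP3, each gene first centred over the 9 arrays, averaged 0.04 ± 0.12 in shH2A.X cells (SD, n = 5) and -0.05 ± 0.10 in shCTRL cells (SD, n = 4). Its SD within a group was thus about that of IGFBP6 itself, 0.12 in shH2A.X and 0.13 in shCTRL cells. The difference of IGFBP3 between the groups was smaller than that of IGFBP6 by 0.08, less than the SD of either gene within a group. Both genes were read on the same 9 hybridizations, so an effect of a single array could reach both.

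IGFBP5, a binding protein that attaches to extracellular matrix, did not separate the groups. Its log2 values were 5.43, 5.54, 5.62, 5.65 and 5.47 on shH2A.X arrays 1 to 5, against 5.10, 5.37, 5.72 and 5.73 on shCTRL arrays 1 to 4. The shCTRL arrays lay on both sides of all 5 shH2A.X arrays. The means were 5.54 ± 0.09 in shH2A.X cells (SD, n = 5) and 5.48 ± 0.30 in shCTRL cells (SD, n = 4), with a difference of 0.06 (SE 0.12). The sign turned without shCTRL array 1, to -0.06. IGFBP5 spans chr2:216672105-216695549.

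IGFBP4, which inhibits IGF action until the protease PAPPA cleaves it, overlapped between the groups as well. It gave 6.29, 6.23, 6.24, 6.49 and 6.62 on shH2A.X arrays 1 to 5, against 6.46, 6.08, 6.51 and 6.35 on shCTRL arrays 1 to 4. Here shH2A.X array 5 was the highest and shCTRL array 2 the lowest of all. The means were 6.38 ± 0.17 in shH2A.X cells (SD, n = 5) and 6.35 ± 0.19 in shCTRL cells (SD, n = 4), a difference of 0.02 (SE 0.11), which ran from -0.07 to 0.07 as single arrays were left out. IGFBP4 spans chr17:40443450-40457725. PAPPA was not analysed here.

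IGFBP7, the family member with the weakest hold on IGFs, was the most variable. It gave 6.33, 6.06, 5.93, 5.84 and 6.15 on shH2A.X arrays 1 to 5, against 6.56, 6.82, 5.59 and 6.52 on shCTRL arrays 1 to 4. Of the shCTRL arrays, 3 stood above all shH2A.X arrays and array 3 stood below all of them. The means were 6.06 ± 0.19 in shH2A.X cells (SD, n = 5) and 6.37 ± 0.54 in shCTRL cells (SD, n = 4), and the difference was -0.31 (SE 0.21). Without shCTRL array 3 it was -0.57, and without shCTRL array 2 it was -0.16. IGFBP7 spans chr4:57030773-57110385 and is the longest gene of the family, at 79613 bases.

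IGFBP1, made mainly by liver and controlled there by insulin, was near the median of its array, on most arrays below it. It gave 4.57, 4.34, 4.29, 4.32 and 4.29 on shH2A.X arrays 1 to 5, against 4.63, 4.52, 4.54 and 4.42 on shCTRL arrays 1 to 4. It exceeded the median of its own array on only 2 of 9 arrays, whereas each of the other 5 family genes did so on all 9. The means were 4.37 ± 0.12 in shH2A.X cells (SD, n = 5) and 4.53 ± 0.08 in shCTRL cells (SD, n = 4), a difference of -0.16 (SE 0.07). The shH2A.X array 1 lay within the shCTRL range, and the other 4 shH2A.X arrays lay below it. At this brightness the size of a difference is uncertain, because the table gives no detection calls.

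**Figure D2:**
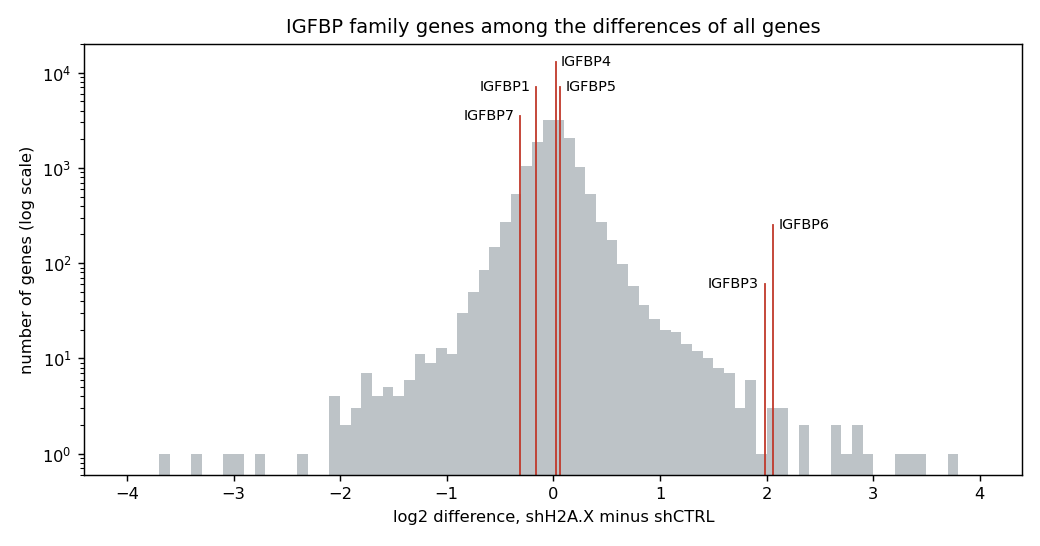
Log2 difference, shH2A.X minus shCTRL (horizontal axis), of all 14884 genes as a histogram with the number of genes on a log scale, and the 6 measured IGFBP genes as red lines whose heights carry no value. IGFBP3 and IGFBP6 stand at 1.98 and 2.06, and the other 4 lie in the body of the distribution, whose median is 0.00.

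The genes whose profile over the 9 arrays was closest to IGFBP3 and IGFBP6 were next sought among all others. Likeness was the root-mean-square difference of the gene-centred log2 values, with 0 for identical profiles, and 14883 genes were compared with each. By this measure IGFBP3 and IGFBP6 were each other's closest gene, at 0.105, while the median gene stood at 1.00 from IGFBP3 and at 1.04 from IGFBP6. After IGFBP6, the genes closest to IGFBP3 were MT1F (0.177), SYTL5 (0.181), DCLK1 (0.197) and TNS3 (0.197). After IGFBP3, those closest to IGFBP6 were VCAN (0.148), HAS2 (0.159), HEG1 (0.173) and MT1F (0.176). The search favours genes with a difference of similar size, so these genes' differences are given here as a description with no test. The same holds for the likeness of IGFBP3 and IGFBP6 and for their distance from the median gene. Both were picked as higher in shH2A.X cells, which by itself sets them apart from genes that differ little.

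VCAN encodes versican, a large proteoglycan of the extracellular matrix, and averaged 9.12 ± 0.04 in shH2A.X cells (SD, n = 5) and 7.01 ± 0.08 in shCTRL cells (SD, n = 4). HAS2 encodes a hyaluronan synthase and averaged 6.70 ± 0.11 in shH2A.X cells and 4.59 ± 0.27 in shCTRL cells. Both were 2.11 higher on the log2 scale in shH2A.X cells, against 2.06 for IGFBP6. With the mean of all its probe sets, VCAN was 1.91 higher. HEG1, a transmembrane protein of cell junctions, averaged 9.17 ± 0.06 in shH2A.X cells and 7.27 ± 0.16 in shCTRL cells, a difference of 1.90. MT1F, a metal-binding metallothionein and the only gene besides the pair itself on both lists, averaged 10.06 ± 0.07 in shH2A.X cells and 8.25 ± 0.08 in shCTRL cells, a difference of 1.80. DCLK1, a microtubule-associated kinase, differed by 2.11, and SYTL5, a synaptotagmin-like protein of vesicle traffic, by 1.90. The shCTRL means of these last genes, 4.30 for DCLK1 and 3.51 for SYTL5, lay below the median of every array, so the size of their differences is uncertain. The shCTRL mean of HAS2, 4.59, was close to the array medians of 4.54 to 4.58, so the size of its difference is uncertain too.

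**Figure D3:**
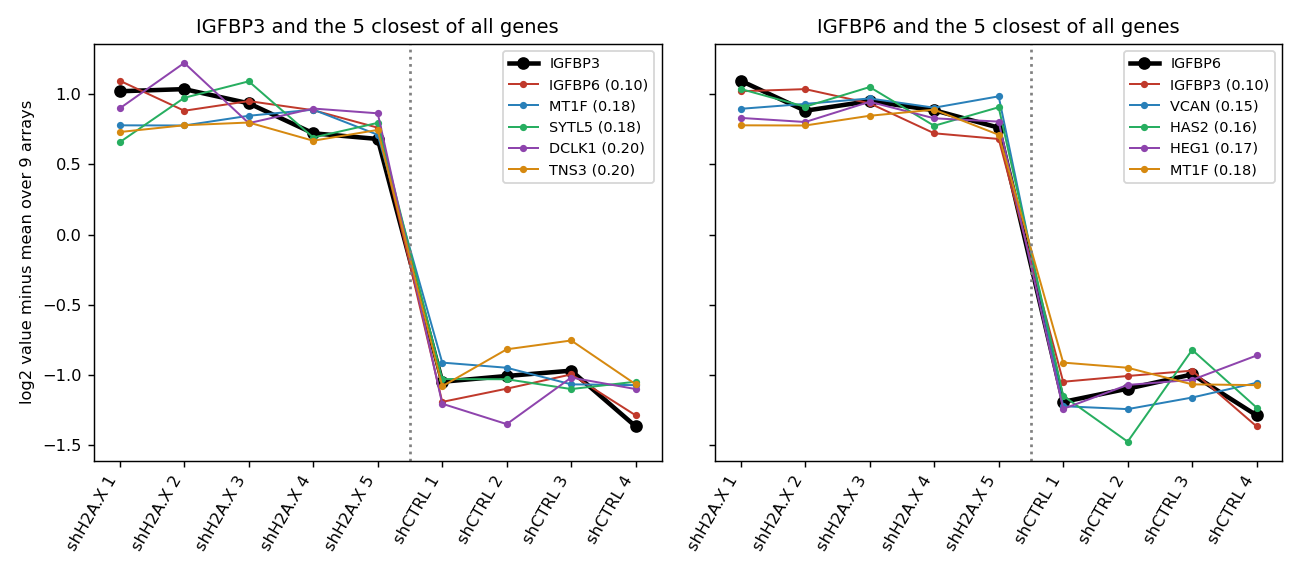
Log2 value minus the gene's mean over 9 arrays (vertical axis) for IGFBP3 (left, black) and IGFBP6 (right, black) with the 5 closest genes of each in colour, over shH2A.X arrays 1 to 5 and then shCTRL arrays 1 to 4. The root-mean-square difference is given in brackets in the legends, and the IGFBP genes are each other's closest at 0.105.

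IGFBP3 and IGFBP6 lie on different chromosomes, and the genes around each were compared in the same fit. Genes whose start lay within 500 kb were taken, family members aside. Around IGFBP6, 29 such genes were measured, of which 3 rose, 2 fell and 24 did not pass the limma test, where 22.9% of all genes were called in either direction. Their differences ran from -0.33 to 0.40 with a median of 0.08, and none approached that of IGFBP6. Those that rose were TNS2 (0.40, SE 0.08, adjusted p = 0.00448 from limma), which encodes a tensin, KRT3 (0.32) and MAP3K12 (0.29), and those that fell were EIF4B (-0.33), a translation initiation factor, and PRR13 (-0.30). With single arrays left out, 3 to 5 of the 29 were called, 3 without any one of shCTRL arrays 1, 2 and 3 or shH2A.X arrays 1, 3 and 4. The measured genes on either side of IGFBP6 did not pass. SOAT2, an enzyme of cholesterol esterification whose gene begins 1.15 kb beyond the end of IGFBP6, gave -0.05 (SE 0.09, adjusted p = 0.788 from limma). SPRYD3, on the other side, gave -0.20 (SE 0.08, adjusted p = 0.102 from limma), which passed without shCTRL array 4 (-0.26, adjusted p = 0.0297).

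The surroundings of IGFBP3 were sparsely measured. Its closest measured neighbour was IGFBP1, 18.6 kb away, whose values are given above and which did not follow it. The other measured genes within 500 kb, 2 in number, were ADCY1, an adenylate cyclase (0.13, SE 0.10, adjusted p = 0.409 from limma), and SEPTIN7P2 (0.01, SE 0.15, adjusted p = 0.976), and neither passed. The next measured gene on the other side was TNS3, which encodes a tensin of focal adhesions and is also among the genes closest to IGFBP3 in profile. It lies 1354 kb away. TNS3 gave 8.02, 8.06, 8.08, 7.95 and 8.03 on shH2A.X arrays 1 to 5, against 6.20, 6.47, 6.53 and 6.22 on shCTRL arrays 1 to 4. It rose by 1.68 (SE 0.08, adjusted p = 5.93e-08 from limma). The p-value is given because TNS3 was named by its position, though it lies outside the 500 kb. Nothing is read from it for the likeness in profile, which favours such a difference.

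**Figure D4:**
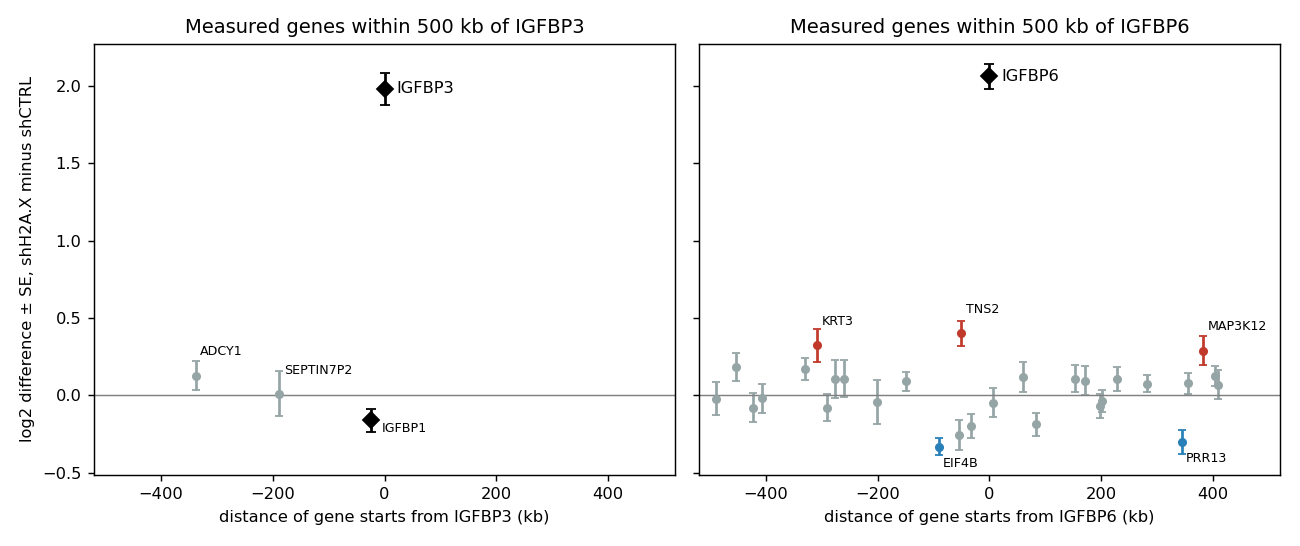
Log2 difference ± SE, shH2A.X minus shCTRL (vertical axis), of measured genes by the distance of their start from that of IGFBP3 (left) or IGFBP6 (right) in kb. Black diamonds are IGFBP genes, red points rose, blue points fell and grey points did not pass. IGFBP6 at 2.06 stands among 29 genes between -0.33 and 0.40.

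Genes on the ligand and receptor side of the IGF axis were called in both directions. Of 14 measured genes of 17 listed IGF ligands, receptors and receptor adaptors, 3 rose, 3 fell and 8 did not pass (42.9% called, where 22.9% of all genes were), with a median difference of 0.05 against 0.00 over all genes. IGF1R, the receptor that IGFBPs keep from its ligands, gave 6.78, 6.98, 6.93, 6.92 and 7.03 on shH2A.X arrays 1 to 5, against 6.84, 6.90, 7.01 and 7.17 on shCTRL arrays 1 to 4. These overlap throughout (difference -0.05, SE 0.08, adjusted p = 0.732 from limma), and so did INSR, the insulin receptor (-0.09, SE 0.07, adjusted p = 0.445). IGF2R, which clears IGF2 from the cell surface, rose by 0.46 (SE 0.09, adjusted p = 0.00248), averaging 8.56 ± 0.16 in shH2A.X cells (SD, n = 5) and 8.10 ± 0.10 in shCTRL cells (SD, n = 4). IGF1 was dim, averaging 3.49 in shH2A.X and 3.55 in shCTRL cells, and did not pass (adjusted p = 0.666). IGF2 was not analysed here, so the levels of the ligand that IGFBP6 prefers are not known.

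The adaptors that act at IGF1R and the insulin receptor moved in both directions. GRB14, an adaptor that inhibits the insulin receptor, averaged 4.78 ± 0.05 in shH2A.X cells (SD, n = 5) and 6.54 ± 0.11 in shCTRL cells (SD, n = 4), and fell by 1.76 (SE 0.07, adjusted p = 9.43e-09 from limma). The fall was nearly as large as the differences of IGFBP3 and IGFBP6, which had the opposite sign. IRS1, the main docking protein of the receptor, fell by 0.63 (SE 0.07) and SHC1, an adaptor towards Ras, by 0.61 (SE 0.06). IRS2, the other widely expressed docking protein, rose by 0.33 (SE 0.08, adjusted p = 0.0111). GRB2 rose by 0.23 (SE 0.06, adjusted p = 0.0179), but not without shCTRL array 3 (0.20, adjusted p = 0.0552) and not when all probe sets were tested together (adjusted p = 0.0558). Of the IGF2 mRNA-binding proteins, 2 of 3 fell and 1 did not pass (66.7% called, against 22.9% of all genes), with a median difference of -0.56. IGF2BP3 averaged 5.28 ± 0.22 in shH2A.X cells (SD, n = 5) and 7.06 ± 0.10 in shCTRL cells (SD, n = 4), a fall by 1.78 (SE 0.11, adjusted p = 4.4e-07), and IGF2BP2 fell by 0.56 (SE 0.06). In the PI3K, AKT and FOXO arm below the receptor, 2 of 13 measured genes (of 26 listed) rose, 3 fell and 8 did not pass (38.5% called), with a median of 0.00. RHEB, the activator of mTOR, rose by 0.42, and EIF4EBP1, the translation repressor that mTOR inactivates, fell by 0.77, as did the transcription factors FOXO1 (by 0.47) and FOXO4 (by 0.41). PDPK1, the kinase above AKT, rose by 0.21 (adjusted p = 0.0331), a call that was lost without any one of 7 arrays (all 4 shCTRL arrays and shH2A.X arrays 1, 2 and 3), at adjusted p of 0.0554 to 0.0784.

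**Figure D5:**
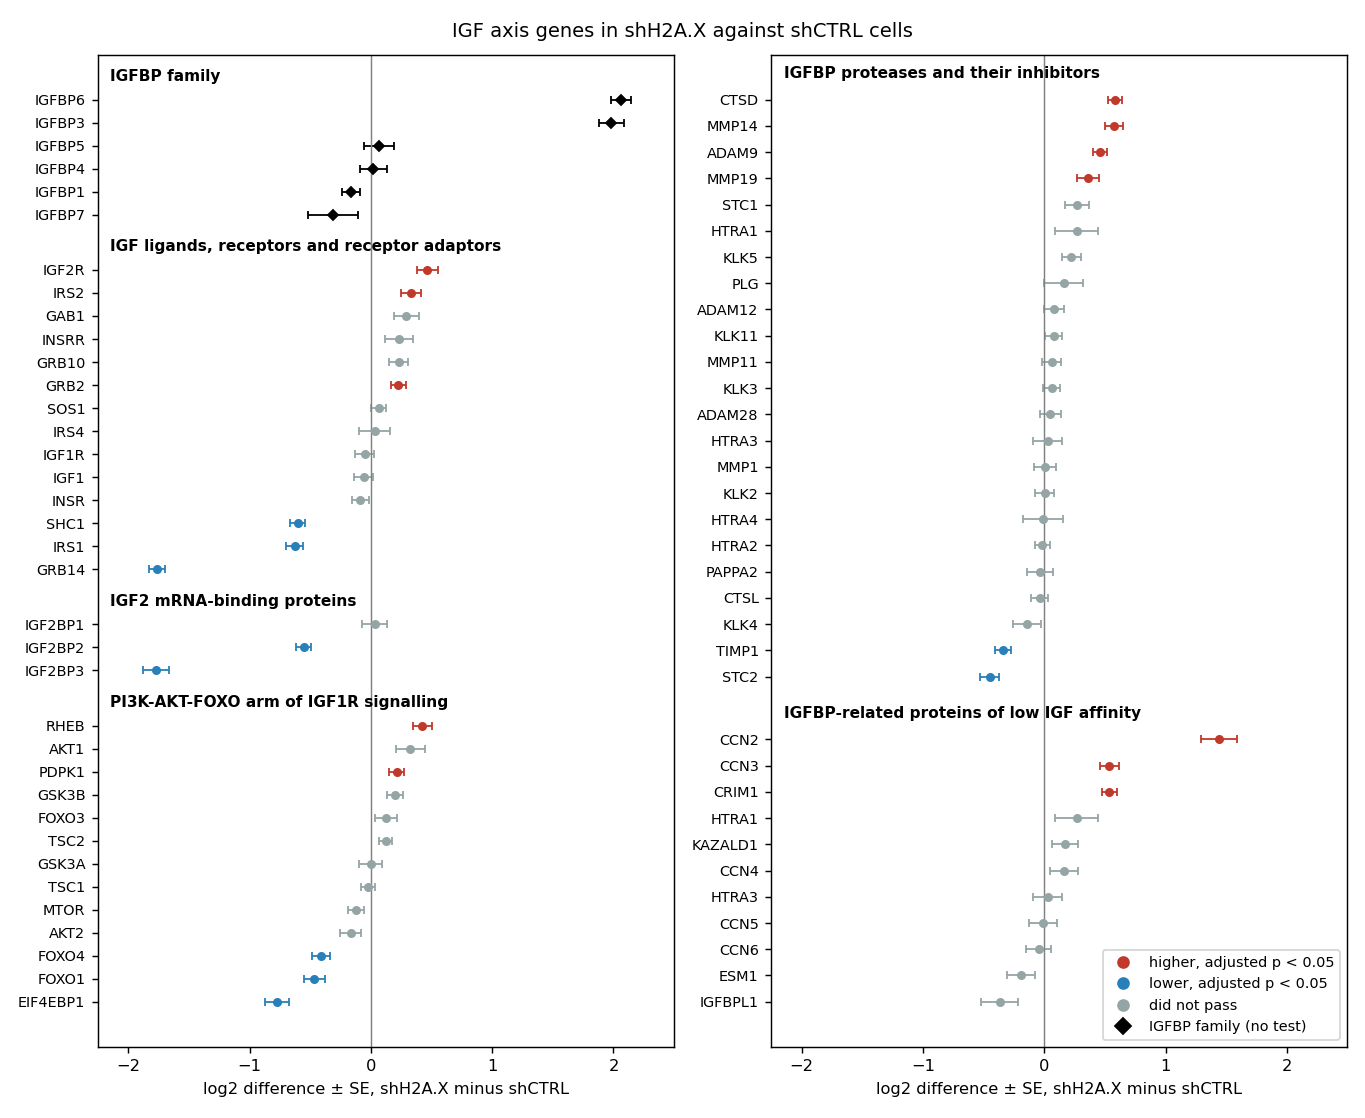
Log2 difference ± SE, shH2A.X minus shCTRL (horizontal axis), of the measured IGFBP genes and of 5 lists of the IGF axis, in order of difference within each list. Black diamonds are the IGFBP family, which has no test, red points rose, blue points fell and grey points did not pass. IGFBP6 and IGFBP3 lie at 2.06 and 1.98, and CCN2, at 1.44, is the largest rise in the other lists drawn.

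Proteases that cut IGFBPs, and the inhibitors of those proteases, were called about as often as genes at large. Of 23 measured genes of 33 listed, 4 rose, 2 fell and 17 did not pass (26.1% called, where 22.9% of all genes were), with a median of 0.06. Those that rose were CTSD (0.58), the lysosomal protease cathepsin D, which can cut IGFBP3, the matrix metalloproteases MMP14 (0.58) and MMP19 (0.36), and ADAM9 (0.46), which can cut IGFBP5. Without shCTRL array 2, MMP19 rose by only 0.25 (adjusted p = 0.0163 from limma). Its shCTRL mean, 4.51, lay below the median of every array, so the size of its rise is uncertain. The inhibitors that fell were STC2 (-0.45), a stanniocalcin that blocks PAPPA, and TIMP1 (-0.34), which blocks metalloproteases. The related inhibitor STC1 gave 0.27 (adjusted p = 0.0827 from limma), and passed without shH2A.X array 2 (0.33, adjusted p = 0.0389).

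Of 11 measured genes of 12 that encode IGFBP-related proteins of low IGF affinity, 3 rose, none fell and 8 did not pass (27.3% called, where 22.9% of all genes were), with a median of 0.16. CCN2, a matricellular protein once classed as an IGFBP, gave 7.74, 7.73, 7.51, 7.62 and 7.36 on shH2A.X arrays 1 to 5, against 5.87, 6.66, 5.96 and 6.12 on shCTRL arrays 1 to 4. All 5 shH2A.X arrays lay above all shCTRL arrays, and the rise was 1.44 (SE 0.15, adjusted p = 3.18e-05 from limma). The mean of all CCN2 probe sets gave a smaller rise, 0.98 (SE 0.07). CCN3, of the same family, rose by 0.54, as did CRIM1, a membrane protein with an IGFBP-like domain. Of 9 measured genes of 22 listed as reported binding partners of IGFBP3 and IGFBP6, FN1 rose, none fell and 8 did not pass (11.1% called), with a median of 0.02. The methods' t-test and the fit with a mean-variance trend and robust prior each called 3 of these 9. FN1, the matrix protein fibronectin, rose by 0.97 (SE 0.07, adjusted p = 2.03e-06). TMEM219, a reported receptor of IGFBP3, gave 0.02 (adjusted p = 0.85), and LRP1, a further reported receptor, gave 0.10 (adjusted p = 0.418). The nuclear receptor partners RXRA and NR4A1 were not analysed here.

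IGFBP3 and IGFBP6 are both reported to respond to retinoids or vitamin D, so other genes under the same regulators were read. In the list of vitamin D and retinoid receptors and targets, 3 of 9 measured genes (of 25 listed) rose and 6 did not pass (33.3% called higher, where 12.2% of all genes were), with a median of 0.14. Those that rose were STRA6, the receptor for retinol-binding protein (0.99, SE 0.08), CRABP2, a retinoic acid carrier (0.37), and DHRS3, which reduces retinaldehyde (0.33). The measured vitamin D targets CD14 (0.27), CLDN2 (0.14), CAMP (0.08) and THBD (0.01) did not pass. The retinoid-responsive genes RARRES1 (0.01) and PLAAT4 (-0.09) did not pass. Their group means, 3.11 and 3.78 in shH2A.X and 3.10 and 3.87 in shCTRL cells, lay below the median of every array. Little can therefore be read from them. None of the nuclear receptors on this list was among the 9 measured genes.

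Every culture was of the HCT116 line. Markers of other cell types were still read beside these values, because fibroblasts, endothelium and liver also make IGFBPs. Of 3 measured fibroblast markers of 10 listed, none was called by limma (0 higher and 1 lower at an unadjusted p under 0.05), and their mean level ran from 3.58 to 3.80 on shH2A.X arrays and from 3.78 to 3.94 on shCTRL arrays. DCN, which encodes the fibroblast proteoglycan decorin, stood at 2.60 in shH2A.X and 2.77 in shCTRL cells, far below the array medians. Of 4 measured leukocyte and endothelial markers of 9 listed, CD68 rose by 0.90 (SE 0.07) and 3 did not pass (25% called). At an unadjusted p under 0.05 from limma, 3 were higher and 0 lower, with KDR (0.31) and PECAM1 (0.23) besides CD68. The median difference of the list was 0.27. The mean level of the 4 markers ran from 4.76 to 4.79 on shH2A.X arrays and from 4.33 to 4.50 on shCTRL arrays. None of the 5 hepatocyte markers was called (0 at an unadjusted p under 0.05). Of 9 measured colorectal epithelial markers of 11 listed, KRT19 and KRT20 rose, EPCAM fell and 6 did not pass (33.3% called, where 22.9% of all genes were), and their mean level ran from 7.18 to 7.26 on shH2A.X arrays and from 7.01 to 7.17 on shCTRL arrays. The part of these changes in the IGFBP values was not tested.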

How the data were processed

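Total RNA of shH2A.X (5) and shCTRL (4) HCT116 cells was measured on 1 Affymetrix Human Gene 2.0 ST array per sample. The authors made CHP files with Affymetrix Expression Console, normalized the CEL files in Partek 6.6 and deposited log2 values of 53617 probe sets. How the background was corrected and which normalization was used is not given in the sources used here. The table has no detection calls, and the number of arrays limits the precision, with a median SD between arrays of 0.128. The methods state another number of shCTRL arrays than the 4 labelled samples, all of which were used. No pair of arrays held identical values.

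Gene names came from the platform annotation, updated through the GRCh38.p14 RefSeq table, and 37519 probe sets are unnamed here. A gene was read from its probe set with the highest mean. A linear model was fitted to all 14884 genes in limma 3.58.1 (R 4.3.3), p-values were moderated with eBayes and adjusted by Benjamini-Hochberg over every gene, and the code was tested on simulated data. Genes rose or fell only at an adjusted p under 0.05. Replicates are called independent by the study, without naming separate infections, so p-values reflect only the spread of these arrays. Named genes are the family, the 5 closest profiles of IGFBP3 and of IGFBP6, the called genes of each list where 6 or fewer were called, a fixed set of IGF axis genes, and the flanking genes. A further planned gene list is not reported here. The members and lists were chosen with earlier results of these data known. Neighbours called, marker genes and vitamin D targets are named in addition, chosen after their values were seen. Alternatives were quantile normalization, median centring, a filter on dim genes, the mean of all probe sets or all probe sets as the unit, leaving out each array, replicate number as a block, the methods' t-test, a mean-variance trend with robust prior, and array weights.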

Additional observations from a re-analysis of the deposited data

Results flagged for a closer look

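Of 102 sets of arrays checked (51 genes in 2 groups), 5 held 1 array far from the others of its group, and chance alone gives this in about 1 in 20 sets. IGFBP1 was highest on shH2A.X array 1, at 4.57, with the other shH2A.X arrays between 4.29 and 4.34. Among genes with a profile close to IGFBP3 or IGFBP6, DCLK1 was highest on shH2A.X array 2, at 6.69 against 6.26 to 6.37 on the other shH2A.X arrays, and HEG1 on shH2A.X array 3, at 9.28 against 9.13 to 9.16. MMP19, a metalloprotease that can cut IGFBPs, was lowest on shCTRL array 2, at 4.19 against 4.58 to 4.65 on the other shCTRL arrays. STRA6, the receptor for retinol-binding protein, was lowest on shCTRL array 1, at 4.83 against 5.08 to 5.12. These arrays differed between the genes, and neither IGFBP3 nor IGFBP6 was among them.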

How the results depend on the processing

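The differences of IGFBP3 and IGFBP6 moved little under the alternatives that gave them a value. Without 1 array, IGFBP3 ran from 1.89 to 2.03, IGFBP6 from 2.01 to 2.11, IGFBP7 from -0.57 to -0.16, IGFBP1 from -0.21 to -0.13, IGFBP4 from -0.07 to 0.07 and IGFBP5 from -0.06 to 0.15. IGFBP1 had no value under the filter on dim genes, which removed it, and the same held for STC1. Over all genes, 1532 to 1680 were called higher and 1326 to 1505 lower without 1 array. Calls near IGFBP6, 5 of 29 in the report, were 2 with all probe sets as the unit, 3 with the methods' t-test, 3 with array weights and 3 to 5 without 1 array. Calls among the reported binding partners, 1 of 9, were 3 with the methods' t-test and 3 with the mean-variance trend with robust prior. The cause of these changes was not tested. The methods' t-test found 4761 genes at an unadjusted p under 0.05 and 3213 after Benjamini-Hochberg adjustment, where limma found 4969 and 3404. Of 34 genes named by the plan and given with a test, 30 kept their call under all 18 alternatives. PDPK1, GRB2, SPRYD3 and STC1 did not. Genes near IGFBP3 and IGFBP6 other than SPRYD3, SOAT2 and TNS3 were followed only as counts. The cell type markers, IGF1, RARRES1, PLAAT4 and the vitamin D targets were not followed under the alternatives.

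The replicate numbers did not pair the arrays. Deviations of same-numbered arrays from their group means correlated at -0.0042, 0.024, -0.0683 and -0.0855 for numbers 1 to 4, and no shH2A.X array matched its own number best. With replicate number as a block over numbers 1 to 4, which drops shH2A.X array 5, the differences were 2.03 for IGFBP3, 2.10 for IGFBP6, -0.14 for IGFBP1, -0.04 for IGFBP4, 0.08 for IGFBP5 and -0.33 for IGFBP7, with 1270 genes called higher and 1074 lower. In that fit GRB2 and PDPK1 did not pass (adjusted p = 0.12 and 0.0742 from limma). No detection calls were at hand, so the brightness below which a value is background is not known. Genes with both group means below the array medians included IGFBP1, IGF1, STC1, RARRES1, PLAAT4 and the fibroblast markers DCN and LUM. MMP19, DCLK1 and SYTL5 lay below them in shCTRL cells.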
